A study of Mus musculus with 24 samples.

Results

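Immediate early genes are switched on within minutes of synaptic activity without new protein synthesis, and 10 of them, Fos, Fosb, Junb, Egr1, Egr2, Egr3, Egr4, Arc, Npas4 and Nr4a1, were taken by symbol from the nuclear RNA counts of the mouse hippocampus. All 10 were among the 55254 genes counted, and all 10 passed the filter on low counts in each fit. Kinases activated by calcium entry phosphorylate transcription factors such as CREB and the partners of serum response factor that already sit at these genes, so that RNA appears in the nucleus rapidly and is lost again soon after the stimulus. Most of the proteins are themselves transcription factors that set off a later wave of genes, whereas Arc acts at the synapse. In the hippocampus their RNA is widely used as a mark of recently active neurons and is linked to memory storage.

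The mice were C57BL/6N males aged 6 months of 4 genotypes. WT served as control, Mutyh-/- and Ogg1-/- each lacked 1 DNA glycosylase of base excision repair throughout the body, and DKO lacked both. Nuclei of snap-frozen hippocampi were fixed and sorted by an antibody against NeuN, the neuronal protein encoded by Rbfox3, into NeuN+ (neuronal) and NeuN- (mainly glial) fractions, and each genotype and fraction has 3 replicates, 24 libraries in all. The nuclei were pooled from animals of 1 genotype, and whether a replicate is a separate pool is not clear from the sources, so p-values measure the spread between libraries, which may be partly technical.

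Total counts per library ranged from 56563586 to 96192142 in NeuN+ and from 56982273 to 92409869 in NeuN-. The summed level of 8 neuronal markers was 5637 to 6609 CPM (counts scaled to library size) in NeuN+ and 379 to 540 in NeuN-, and that of 5 oligodendrocyte markers was 117 to 140 and 4501 to 6765 CPM, so each fraction carried the RNA of its label. Gene-level counts did not show the targeted genes as lost. Ogg1 was at 3.46 ± 0.227 CPM (SD, n = 3) in NeuN+ libraries labelled Ogg1-/- and 3.29 ± 0.502 in WT. Mutyh was at 10.9 ± 0.901 CPM in NeuN+ libraries labelled Mutyh-/- and 1.23 ± 0.0718 in WT, which is the opposite direction, and it was at 9.94 ± 1.95 in those labelled DKO. Genotype names below are therefore those of the labels.

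The AP-1 genes come first. Fos and Fosb encode the partners that join Jun proteins in the AP-1 dimer. In NeuN+, Fos counts were 66, 165 and 165 in WT, 72, 146 and 245 in Mutyh-/-, 140, 122 and 139 in Ogg1-/- and 131, 83 and 189 in DKO. Scaled to depth, these were 1.07, 2.67 and 2.72 CPM in WT, and the 4 genotypes overlapped over a 3.19-fold range. Fosb in NeuN+ was at 1.53 ± 0.576 CPM in WT, 1.52 ± 0.543 in Mutyh-/-, 1.11 ± 0.336 in Ogg1-/- and 1.34 ± 0.623 in DKO (SD, n = 3). Junb encodes a Jun partner of Fos proteins and was at 5.14, 7.92 and 7.38 CPM in WT NeuN+ against 5.43, 5.75 and 5.18 in DKO NeuN+. Replicate 1 of WT thus lay below all 3 DKO libraries, whereas the other two WT libraries lay above them. Junb shares 173 exonic bases, 7.52% of its exon length, with Prdx2 on the other strand. The handling of such reads is not stated, so how far they bear on its level is not known.

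The Egr genes encode zinc finger factors that bind GC-rich sites, among them sites in their own promoters. Egr1, the best known of the family, was at 15.2, 23.8 and 21.8 CPM in WT and 17.3, 15.4 and 14.2 CPM in Ogg1-/- of NeuN+, which overlap only through WT replicate 1. Egr3 (GRCm38 chr14:70077203-70082614, plus strand) was at 17.5, 19.99 and 20.8 CPM in WT, 16.9, 16.5 and 14.7 in Ogg1-/- and 15.9, 16.1 and 15.3 in DKO. All WT values of Egr3 lay above all values of Ogg1-/- and of DKO. In Mutyh-/- NeuN+ Egr3 was at 15.9, 22.8 and 18.02 CPM and overlapped with WT. Egr4, a neuron-enriched member of the family, was at 2.37 ± 0.706 CPM in WT NeuN+, and its group means in the knockouts ran from 2.04 to 2.45 CPM. Egr2, also known as a regulator of myelination in peripheral nerve, rested on 20 to 83 counts per NeuN+ library and was at 0.811 ± 0.228 CPM in WT.

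Arc (GRCm38 chr15:74669083-74672570, minus strand) encodes a capsid-forming protein that removes AMPA receptors from synapses. Its NeuN+ counts were 796, 1524 and 1578 in WT and 1235, 1833 and 2083 in Mutyh-/-, or 12.9, 24.7 and 26.1 CPM against 21.6, 35.5 and 29.1 CPM, with overlap. In Ogg1-/- and DKO of NeuN+ Arc was at 22.5 ± 3.12 and 22.6 ± 4.12 CPM against 21.2 ± 7.23 in WT (SD, n = 3). Npas4, a factor induced by calcium entry in neurons, was at 9.05, 15.1 and 10.8 CPM in WT and 14.3, 11.0 and 14.8 CPM in DKO of NeuN+. Nr4a1, an orphan nuclear receptor, had the highest counts of the 10 genes in NeuN+, 1449 to 3303 per library. Its group means there lay between 36.2 and 37.4 CPM in all 4 genotypes, a range smaller than the SD of each group.

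**Figure D1:**
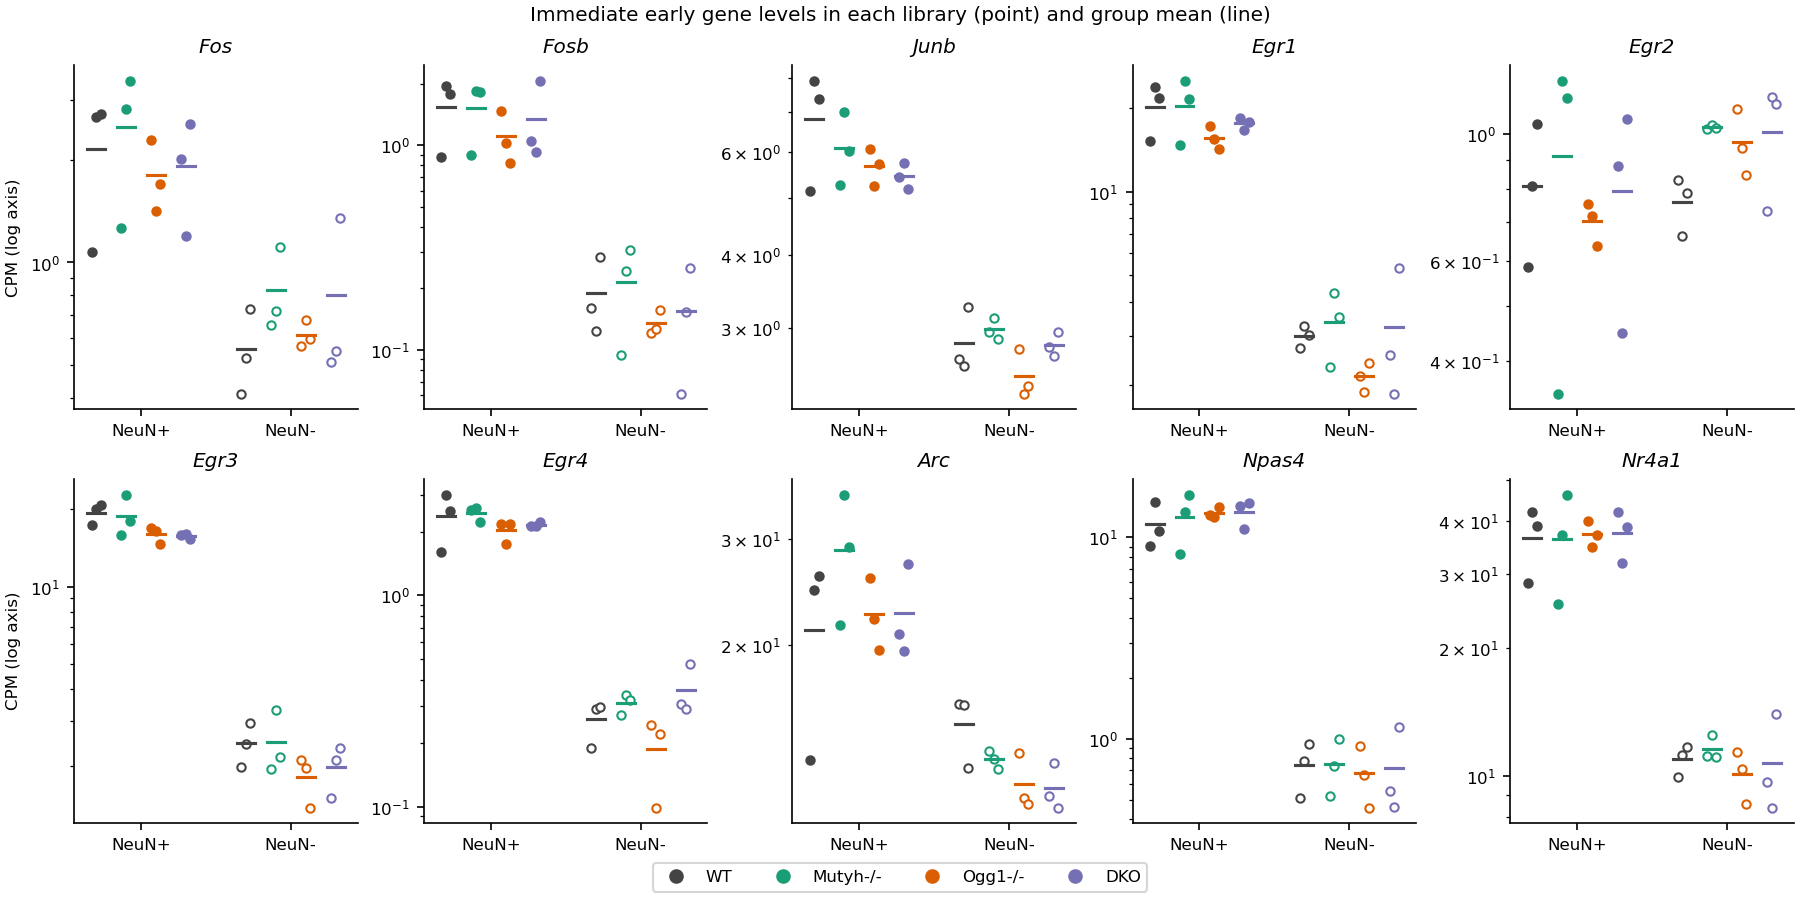
Level of each of the 10 genes in CPM on a log axis, 1 panel per gene, with filled points for NeuN+ and open points for NeuN- libraries, 3 per group, and a line at the group mean. 7 genes lie lower in NeuN- without overlap in every genotype, whereas Egr2 overlaps between fractions, Arc does so in WT and Fos in DKO, and the points of the 4 genotypes overlap for most genes.

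Per kilobase of exon, which allows levels to be compared between genes, WT NeuN+ nuclei held most Nr4a1, at 10.4 ± 2.00 CPM per kb, followed by Arc at 6.94 ± 2.36, Egr1 at 4.52 ± 1.00 and Egr3 at 4.41 ± 0.399. Nr4a1, Arc and Egr1 each overlapped in their 3 libraries with the next in the order. Junb at 2.96 ± 0.641 and Npas4 at 2.82 ± 0.748 CPM per kb lay below Egr3 without overlap and overlapped with each other. Egr4 at 1.10 ± 0.329 and Fos at 0.917 ± 0.400 formed the next pair, and Fosb at 0.246 ± 0.0923 and Egr2 at 0.239 ± 0.0672 the lowest. In WT NeuN- the order changed, with Arc at the top at 4.85 ± 0.654 CPM per kb, above Nr4a1 at 3.12 ± 0.261 without overlap.

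In WT, 8 of the 10 genes were called higher in NeuN+ than in NeuN- nuclei by edgeR's quasi-likelihood test over all 24 libraries, where a call needed a Benjamini-Hochberg adjusted p under 0.05 with a log2 difference beyond 1. By the same rule 42.9% of all 33523 genes tested were called in either direction. Of all tested genes 49.4% were above 0, against 10 of these 10. Npas4 differed most, with a log2 difference of 3.98 (SE 0.31, adjusted p = 6.35e-11), from 51, 56 and 83 counts in NeuN- to 558, 930 and 655 in NeuN+. Egr4 followed at 3.20, Fosb at 2.99, Egr3 at 2.98 and Egr1 at 2.75. Smaller differences were found for Fos at 1.96, Nr4a1 at 1.74 and Junb at 1.26. In a bulk fraction, fewer expressing cells and less RNA per cell cannot be told apart, and the fractions were sequenced on different lanes per the labels, whose part cannot be told apart from that of the sort.

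Arc and Egr2 were the exceptions. Arc was at 16.0, 15.9 and 12.5 CPM in WT NeuN- against 12.9, 24.7 and 26.1 in WT NeuN+, and the fractions overlapped through NeuN+ replicate 1. Its log2 difference of 0.52 (95% interval 0.11 to 0.93, adjusted p = 0.0233) was past the p limit but under the size limit. In the 3 knockouts every NeuN+ library lay above every NeuN- library for Arc, with means 2.22-, 1.91- and 1.95-fold higher in Mutyh-/-, Ogg1-/- and DKO. Egr2 showed a log2 difference of 0.09 (95% interval -0.59 to 0.76, adjusted p = 0.824) in WT, and its mean in NeuN+ was 0.891, 0.727 and 0.790 times that in NeuN- in the same 3 knockouts, with overlap in each.

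How much of each gene was found in NeuN- can be set beside the neuronal markers. The mean WT NeuN- level was 6.39% of the NeuN+ level for Npas4, 10.9% for Egr4, 12.4% for Fosb, 12.7% for Egr3 and 14.9% for Egr1. Of the 8 neuronal markers, Rbfox3 stood at 6.17%, Syt1 at 6.67%, Gad2 at 10.4%, Slc17a7 at 10.9%, Camk2a at 11.5% and Snap25 at 11.8%, with Gad1 at 27.7% and the tubulin gene Tubb3 at 53.9%. Fos stood at 25.8%, Nr4a1 at 30.05%, Junb at 41.6%, Arc at 69.8% and Egr2 at 93.8%. Of the 10 genes, 8 were thus above at least 6 of these 8 markers, all but Npas4 and Egr4, and Arc and Egr2 were above each of the 8. The part of neuronal RNA in the NeuN- levels was not tested.

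**Figure D2:**
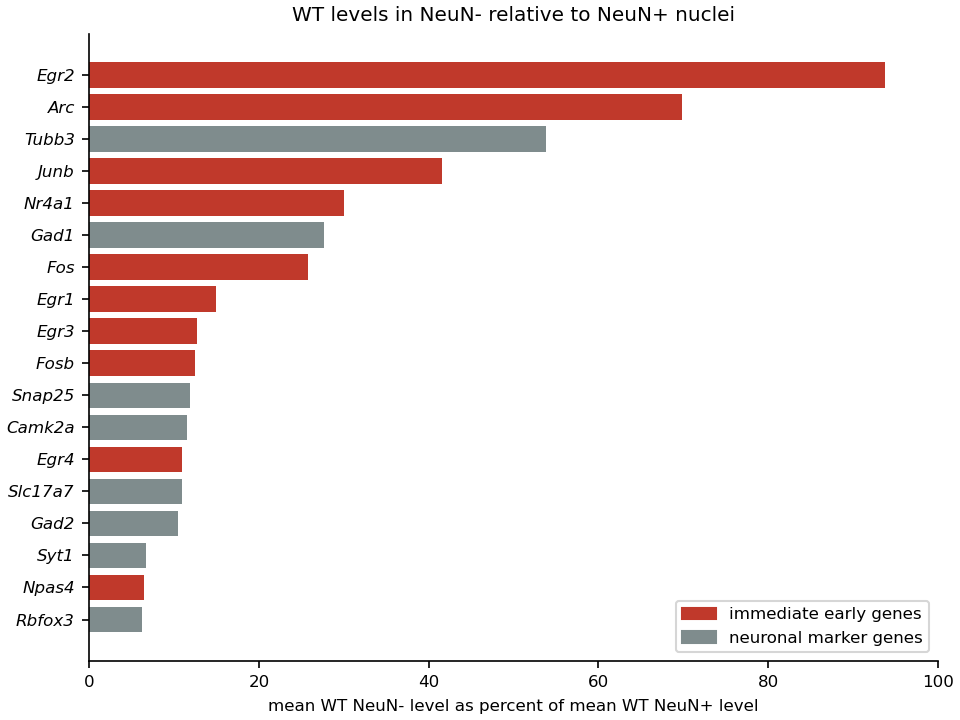
Mean WT level in NeuN- nuclei as a percentage of the mean WT level in NeuN+ nuclei, 1 bar per gene from 3 libraries each, with the 10 immediate early genes in red and 8 neuronal markers in grey. Npas4 at 6.39% lies next to Rbfox3 at 6.17%, whereas Arc at 69.8% and Egr2 at 93.8% lie above every marker.

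Related genes divided between the fractions, and so did all 33523 tested genes, of which 42.9% were called and 49.4% were above 0. Of 16 relatives and partners, 6 were called higher in WT NeuN+ and 5 lower. The AP-1 gene Fosl2 was higher by 2.15 on the log2 scale and the nuclear receptors Nr4a2 and Nr4a3 by 2.87 and 3.17, as was Nab2, a corepressor of Egr proteins, by 1.99. Jund, Atf3 and Batf were lower in NeuN+, at -1.19, -1.64 and -3.28. Of 22 other rapidly induced genes, 4 were higher, among them Dusp5, a phosphatase of ERK, by 3.04 and the synaptic scaffold gene Homer1 by 2.05, and 5 were lower, with Ccn1 lowest at -3.50. Of 18 genes of the later wave, 12 were higher and 2 lower, and Bdnf, a growth factor of neurons, was higher by 3.65. Of 24 upstream kinases, transcription factors and coactivators, 6 were higher and 2 lower, with Camk4 higher by 2.78 and Rps6ka1 lower at -3.32. In either direction 11 of 16 relatives, 9 of 22 rapid, 14 of 18 later and 8 of 24 upstream genes were called. The rapid and upstream genes thus did not exceed the share over all genes.

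Next, each knockout was compared with WT to ask whether loss of the glycosylases changed these genes. None of the 10 genes was called in NeuN+ by the quasi-likelihood test, for which a call needed an adjusted p under 0.05 with a log2 fold change beyond 0.5 in either direction. Of all 30132 genes tested there, 0.428% were called in Mutyh-/-, 0.574% in Ogg1-/- and 0.302% in DKO. At an unadjusted p under 0.05, 0, 2 and 2 of the 10 genes passed, against 18.7%, 12.3% and 13.5% of all tested genes. DESeq2's Wald test also called 0 in each. The median log2 fold change of the 10 genes was 0.03 in Mutyh-/-, -0.26 in Ogg1-/- and -0.16 in DKO, beside -0.01, 0.01 and 0.00 over all genes tested. These 3 comparisons share the WT libraries. In the same comparisons the median was -0.03, -0.25 and -0.19 for 5 granule cell markers. For 6 pyramidal cell markers it was 0.01, -0.10 and 0.02, and for the 8 neuronal markers 0.03, -0.14 and -0.11, with 0 called. The part of cell makeup in the medians of the 10 genes was not tested.

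In NeuN+ the intervals were narrow for some genes. Egr3 differed by -0.29 in Ogg1-/- (95% interval -0.52 to -0.07, adjusted p = 0.250) and by -0.32 in DKO (95% interval -0.55 to -0.09, adjusted p = 0.211). Egr1 was at -0.39 in Ogg1-/- (95% interval -0.75 to -0.03, adjusted p = 0.347) and Junb at -0.34 in DKO (95% interval -0.64 to -0.04, adjusted p = 0.311). Arc was at 0.44 in Mutyh-/- (95% interval -0.04 to 0.91, adjusted p = 0.307). For Nr4a1 the intervals ran from -0.38 to 0.37 in Mutyh-/-, from -0.36 to 0.38 in Ogg1-/- and from -0.34 to 0.40 in DKO, which leave out a change of 0.5 in either direction. For Fos they ran as wide as -1.08 to 0.50 in Ogg1-/-, so a halving could not be told from no change at this spread.

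In NeuN-, 0 of the 10 genes were called in each knockout, and 0.273%, 0.229% and 0.116% of all 31863 tested genes were called in Mutyh-/-, Ogg1-/- and DKO. At an unadjusted p under 0.05, 1 of the 10 genes passed in each, against 13.7%, 11.8% and 12.4% of all tested genes, and DESeq2 called 0. The median log2 fold change of the 10 genes was 0.12 in Mutyh-/-, -0.27 in Ogg1-/- and -0.03 in DKO. Over all genes tested it was -0.005, 0.0009 and 0.007. Of the 10 genes, 9, 2 and 4 were above 0 in these knockouts. Arc was at 16.0, 15.9 and 12.5 CPM in WT, 13.4, 13.0 and 12.5 in Mutyh-/-, 13.3, 11.2 and 10.9 in Ogg1-/- and 11.3, 12.8 and 10.8 in DKO. Its log2 fold change was -0.20 (adjusted p = 0.418), -0.34 (adjusted p = 0.230) and -0.36 (adjusted p = 0.227) in these knockouts. Neuronal markers moved the same way in NeuN-, with 8 of 8 below 0 in each knockout (median log2 fold change -0.13, -0.28 and -0.30, 0 called) and a summed level of 451 to 540 CPM in WT. In Mutyh-/- this sum was 443 to 475 CPM, in Ogg1-/- it was 388 to 464 CPM, and DKO gave 379 to 457 CPM. Of 6 astrocyte markers, 6 were above 0 in Ogg1-/- and in DKO, where Aldh1l1 in Ogg1-/- was the 1 called. Of 5 oligodendrocyte markers, 2 were above 0 in Mutyh-/- and 0 in Ogg1-/- and DKO (median -0.22 in both). Of 3 oligodendrocyte precursor markers, 0 were above 0 in each knockout. Of 5 choroid plexus markers, 0 were above 0 in Mutyh-/- and 5 in Ogg1-/- and DKO. The part of cell makeup in the Arc values was not tested. Egr2 was at 0.832, 0.663 and 0.788 CPM in WT NeuN- and at 1.02, 1.04 and 1.03 CPM in Mutyh-/- NeuN-, all above WT, with a log2 fold change of 0.42 (95% interval 0.01 to 0.83, adjusted p = 0.348). Fosb was least precise, with 6 to 26 counts per NeuN- library and an interval from -1.69 to 0.67 in Ogg1-/-.

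Where the 3 libraries of a knockout and the 3 of WT did not overlap, the genes were few. In NeuN+ the sole such gene was Egr3, lower in Ogg1-/- and in DKO, whereas 21.6%, 20.1% and 17.5% of all genes tested did not overlap between WT and Mutyh-/-, Ogg1-/- or DKO. In NeuN- these were Egr2 higher in Mutyh-/-, Egr2 higher and Egr1 lower in Ogg1-/- and none in DKO, against 19.2%, 19.4% and 16.8%. With 0 to 2 of 10 genes per comparison, the 10 genes did not stand out from that background.

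A test of any difference among the 4 genotypes called 0 of the 10 genes in NeuN+, where 1.06% of all genes were called, and 0 in NeuN-, where 0.76% were. The smallest adjusted p was 0.209 for Egr3 in NeuN+ and 0.263 for Arc in NeuN-. In each fraction 1 of the 10 genes had an unadjusted p under 0.05, against 15.4% of all tested genes in NeuN+ and 13.5% in NeuN-. The effect of a genotype in NeuN+ minus that in NeuN- was called for 0 of the 10 genes in each knockout, against 0.0209%, 0.0537% and 0.0567% of all genes in Mutyh-/-, Ogg1-/- and DKO. Arc differed most between fractions in Mutyh-/-, by 0.63 on the log2 scale (95% interval 0.05 to 1.21, adjusted p = 0.529). It was the 1 of the 10 genes with an unadjusted p under 0.05 there, against 8.58% of all tested genes. None of the related genes was called in any comparison of a knockout with WT, whether the 22 rapid genes (21 of them tested in NeuN+), the 18 later genes, the 16 relatives or the 24 upstream genes. Their median log2 fold changes in NeuN+ ran from -0.10 for the later genes in DKO to 0.03 for the upstream genes in Mutyh-/-.

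**Figure D3:**
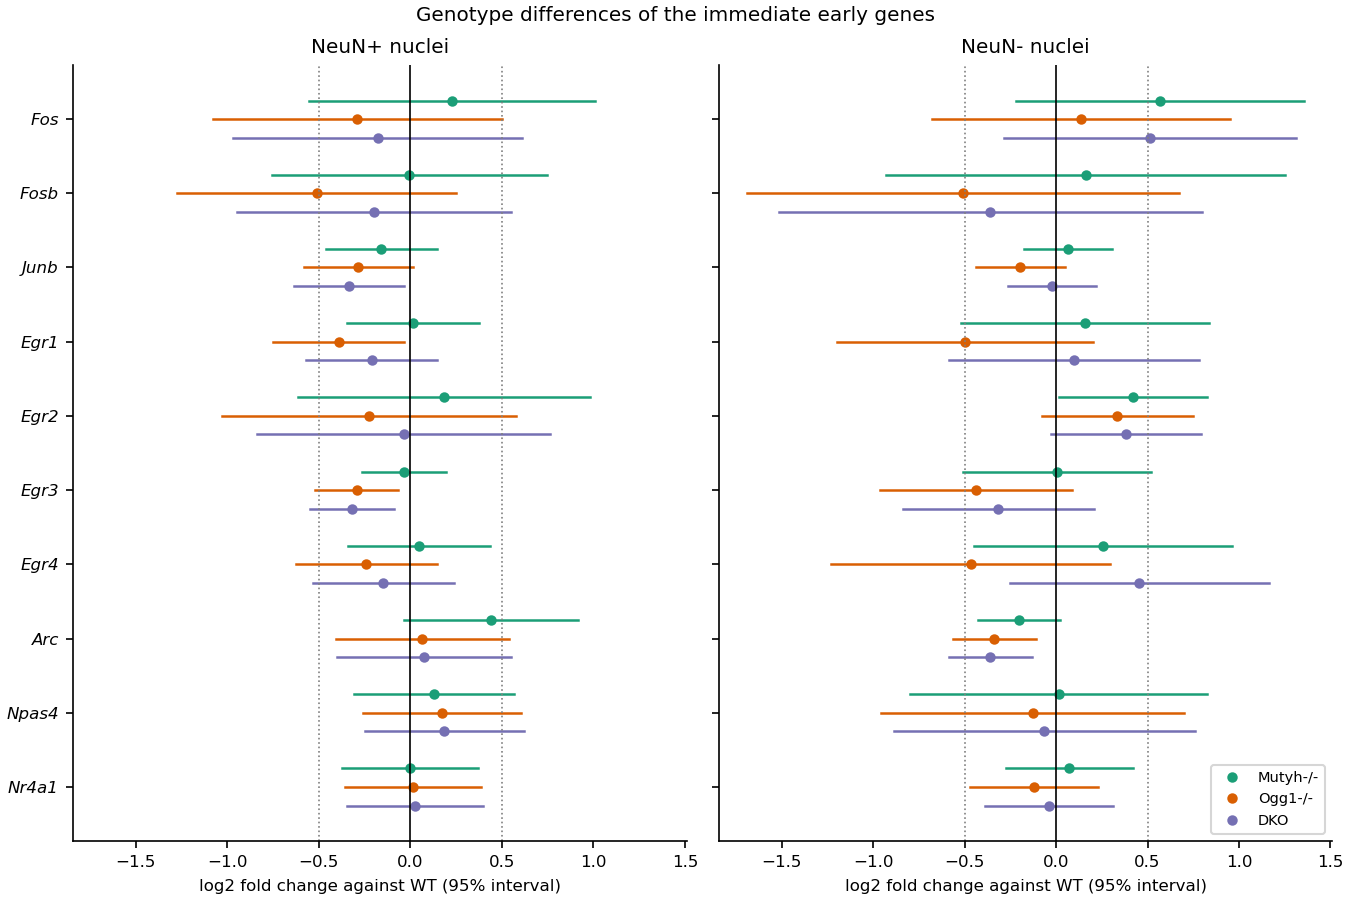
Log2 fold change of each of the 10 genes against WT with its 95% interval from the quasi-likelihood fit, for 3 knockouts in NeuN+ (left) and NeuN- (right), with dotted lines at the size limit of 0.5 in each direction. Within NeuN+ the intervals are narrowest for Egr3, at -0.32 in DKO, and within NeuN- they are widest for Fosb, from -1.69 to 0.67 in Ogg1-/-.

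The 10 genes varied widely between replicates of 1 genotype. The SD of log2 CPM within groups exceeded the median of genes of a similar level for 10 of 10 genes in NeuN+ and for 8 of 10 in NeuN-. Fos had an SD of 0.626 in NeuN+ against 0.176 for genes of its level, and Arc 0.374 against 0.0826. Egr3 at 0.160 against 0.0882 was the steadiest of the 10 in NeuN+. In NeuN-, Npas4 had an SD of 0.521 against 0.273, whereas Junb at 0.120 against 0.161 and Egr2 at 0.219 against 0.243 were below the median of their level.

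They also moved together. Replicate 1 of WT was the lowest of the 3 WT NeuN+ libraries for 10 of 10 genes, where 35.3% of all tested genes were lowest, and its mean deviation over the 10 genes from the WT mean was -0.49 on the log2 scale. Replicate 1 of Mutyh-/- was the lowest of its group for 9 of 10 genes in NeuN+, all but Egr4, with a mean deviation of -0.48 and 30.7% of all tested genes lowest. Replicate 2 of DKO was lowest for 8 of 10, at -0.25, with 28.7% of all tested genes lowest. Replicate 1 of Ogg1-/- was highest for 8 of 10, at 0.17, with 31.6% of all tested genes highest. In NeuN- the mean deviations ran from -0.30 in DKO replicate 1 to 0.46 in DKO replicate 3. The latter library was highest for 8 of 10 genes, with 38.8% of all tested genes highest. That library also stood apart in markers, with choroid plexus markers at 196 CPM against 5.61 and 57.1 in the other two DKO NeuN- libraries, endothelial at 28.2 against 16.6 and 20.1, neuronal at 457 against 379 and 383 and oligodendrocyte at 4501 against 5531 and 5578, whose part was not tested. Without it, the median log2 fold change of the 10 genes in DKO NeuN- was -0.29, with 8 of 10 below 0 and 0 called, against -0.03 with it. As the 10 genes were high in that library, a lower median follows from leaving it out. Without DKO replicate 1 or 2 the median was 0.09 or 0.13, with 3 of 10 below 0 in each. Without WT NeuN- replicate 3 it was 0.10, with 2 of 10 below 0. Across the 12 NeuN+ libraries, with deviations from group means, 45 of 45 gene pairs correlated positively (median Pearson's r = 0.75, range 0.18 to 0.94). In NeuN- 37 of 45 did, with a median of 0.43. These correlations share libraries and depth and are given as a description.

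Depth and marker levels of the low libraries were as follows. Replicate 1 of WT NeuN+ had 67220387 counts against 64817411 and 64759050 in the other two, and replicate 1 of Mutyh-/- NeuN+ had 62539911 against 56563586 and 78760380. Both were below the NeuN+ median of 69255768 counts. Neuronal markers summed to 5955 CPM in WT replicate 1 against 5637 and 5864 CPM, granule cell markers to 229.9 against 229.2 and 254.8, and pyramidal cell markers to 496 against 437 and 441. Astrocyte markers summed to 358 CPM in WT replicate 1 against 318 and 294. In Mutyh-/- replicate 1 neuronal markers were at 6417 CPM against 6609 and 6040, and astrocyte markers at 292 against 287 and 301. Granule cell markers were at 253 CPM there against 271 and 202, and pyramidal cell markers at 425 against 439 and 455. Pyramidal cell markers were thus lowest in this library, whereas they were highest in WT replicate 1. The part of depth and of cell makeup in the low values was not tested.

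Other rapidly induced genes followed the same libraries. Of the 21 tested in NeuN+, 20 were lowest in WT replicate 1, with a mean deviation of -0.32, and 13 were lowest in Mutyh-/- replicate 1, at -0.17. Of the 18 later genes, 8 and 10 were lowest in these libraries, of the 16 relatives 12 and 7, and of the 24 upstream genes 12 and 3. The other genes whose deviations from group means followed the mean deviation of the 10 most closely over the 12 NeuN+ libraries were Smap2, a regulator of vesicle traffic (Pearson's r = 0.97, Spearman's rho = 0.96), Midn, a protein that guides others to the proteasome (r = 0.96), Sik1, a kinase induced by cAMP (r = 0.95), Mir212 (r = 0.95) and Stk40 (r = 0.94). The median r over all 30122 other genes was 0.01. Without replicate 1 of WT and of Mutyh-/-, r was 0.91, 0.93, 0.91, 0.90 and 0.83 for the 5 genes. As the 5 were picked for the highest r over these same libraries, high values follow from the choice and are a description only. Smap2 ranged 1.13-fold in CPM over the 12 NeuN+ libraries, and Mir212 was low, at a mean log2 CPM of -1.42.

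**Figure D4:**
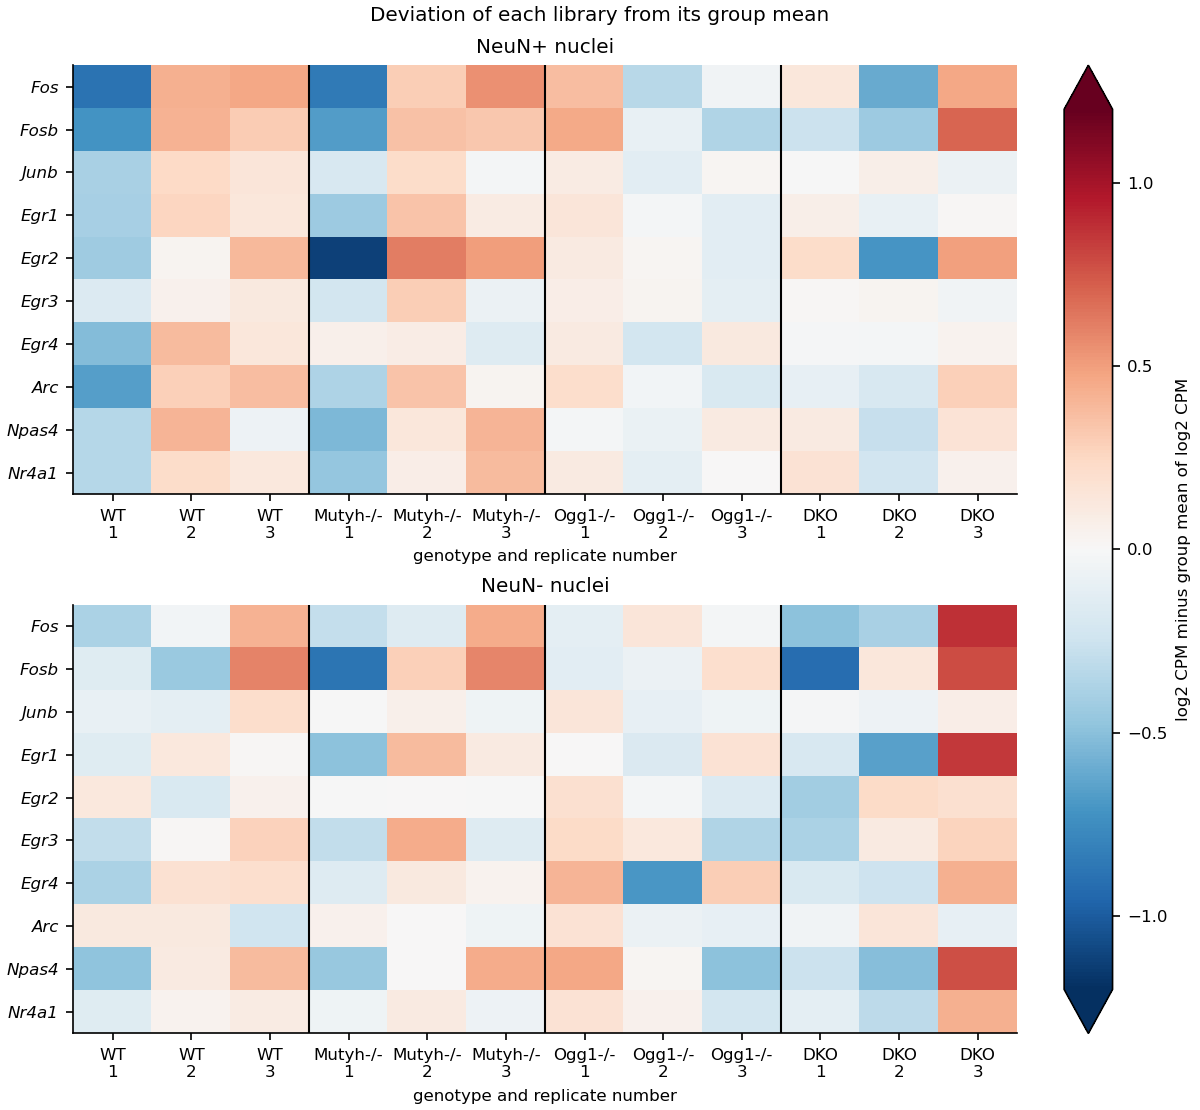
Deviation of each library from its group mean of log2 CPM, with 1 row per gene and 1 column per library in NeuN+ (top) and NeuN- (bottom), blue for below and red for above the mean. The columns of replicate 1 of WT and of Mutyh-/- in NeuN+ are blue for 10 and 9 of the 10 genes, with mean deviations of -0.49 and -0.48.

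The low libraries bear on the comparisons of genotypes. Without WT NeuN+ replicate 1, the median log2 fold change of the 10 genes in NeuN+ was -0.13 in Mutyh-/-, -0.44 in Ogg1-/- and -0.38 in DKO, each with 9 of 10 genes below 0, and 0 genes were called, with smallest adjusted p of 0.205, 0.0861 and 0.0956. Without WT replicate 2 the DKO median was 0.02. With replicate 1 of both WT and Mutyh-/- left out, a setting chosen after the data were seen, Egr1 was called lower in Ogg1-/- NeuN+, at -0.58 (SE 0.094, adjusted p = 0.0201). These libraries were picked because the 10 genes, Egr1 among them, were low there. Leaving out a low WT library lowers the fold changes by that choice, so the call is a description only.

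Because these genes varied together between libraries, the sequences in front of their starts were read. RefSeq promoter windows on GRCm38.p6 were found for 7 of the 10 genes, and the 250 bases before the start were searched on both strands. The letters searched were the CArG box of serum response factor, the cAMP response element TGACGTCA of CREB, its half-site TGACG, the AP-1 element TGANTCA and the EGR element GCGNGGGCG, of which the half-site is contained in the full cAMP response element and was added after the windows were seen. The 4 windows shown do not lie in exons that GENCODE gives to the gene, and capitals mark the matches, with Fos and Egr4 for half-sites alone, Nr4a1 for the most matches and Egr2 for the CArG box.
Fos, chr12:85473640-85473889, plus strand: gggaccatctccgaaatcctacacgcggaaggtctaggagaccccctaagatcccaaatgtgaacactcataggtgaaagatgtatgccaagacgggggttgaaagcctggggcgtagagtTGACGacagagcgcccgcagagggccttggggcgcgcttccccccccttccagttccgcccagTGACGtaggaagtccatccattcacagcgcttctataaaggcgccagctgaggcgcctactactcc
Egr4, chr6:85513590-85513839, minus strand: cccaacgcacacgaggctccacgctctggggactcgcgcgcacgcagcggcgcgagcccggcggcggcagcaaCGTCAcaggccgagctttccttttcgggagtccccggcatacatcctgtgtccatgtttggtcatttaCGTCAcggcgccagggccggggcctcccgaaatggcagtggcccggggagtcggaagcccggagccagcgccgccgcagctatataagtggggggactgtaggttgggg
Nr4a1, chr15:101266596-101266845, plus strand: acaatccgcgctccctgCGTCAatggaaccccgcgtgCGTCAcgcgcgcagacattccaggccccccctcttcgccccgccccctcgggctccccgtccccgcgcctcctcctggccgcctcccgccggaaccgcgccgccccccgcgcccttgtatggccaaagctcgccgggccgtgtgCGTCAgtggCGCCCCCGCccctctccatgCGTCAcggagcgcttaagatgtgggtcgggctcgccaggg
Egr2, chr10:67537619-67537868, plus strand: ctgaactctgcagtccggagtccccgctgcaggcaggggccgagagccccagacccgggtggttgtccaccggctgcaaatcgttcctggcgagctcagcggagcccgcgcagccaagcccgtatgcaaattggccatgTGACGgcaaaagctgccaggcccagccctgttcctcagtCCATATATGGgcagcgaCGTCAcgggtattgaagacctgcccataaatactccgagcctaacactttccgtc

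In the Fos window the half-sites begin 129 and 66 bases before the start, and in the Egr4 window 177 and 109 bases before it. The Nr4a1 window holds 4 half-sites and an EGR element that begins 60 bases before the start. The Egr2 window, 1 of 5 listed for the gene, holds a CArG box 72 bases before the start between half-sites at 111 and 55 bases. The half-site stands in 9 of the 11 windows of these 7 genes and in 17.8% of all 32851 windows, a description only, since it was chosen with these windows in view. The CArG box was found in 4 of the 11 windows, all of Egr2 and partly overlapping, and in 1.47% of all windows. The EGR element was found in 2, of Fosb and Nr4a1, and in 4.70% of all windows. Neither the full cAMP response element (1.55% of windows) nor the AP-1 element (6.75%) was found for any of the 7. Such matches describe letters and not bound sites, and elements outside these 250 bases were not searched.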

How the data were processed

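Nuclear RNA libraries from a stranded total RNA kit were aligned by the authors to GRCm38 with HISAT2 2.1.0 and assigned to genes with featureCounts. The deposited values are raw counts, listed by gene symbol. The handling of strand, overlapping genes and multiply aligned reads is not given in the sources used here. Here, counts were analysed with R 4.3.3 and edgeR 4.0.16 after filterByExpr and TMM scaling. The 12 libraries of each fraction were fitted together, and all 24 for differences between fractions. P-values come from the quasi-likelihood test, adjusted by the Benjamini-Hochberg method over all tested genes (30132 in NeuN+, 31863 in NeuN-, 33523 over all 24 libraries). Printed levels are CPM from the TMM factors of all 24 libraries, deviations are of log2 CPM with a prior count of 2, and genes of a similar level are those within 0.5 on that scale. SE and intervals come from the fit. The scripts were tested on simulated counts. Exon lengths are from GENCODE vM21. The 10 genes are named by the rule that chose them, related genes by their calls and likeness. The members and lists were chosen with earlier results of these data known. Alternatives covered DESeq2 1.42.0, scaling, filters, tests, 2-genotype fits, the replicate block and omission of libraries.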

Additional observations from a re-analysis of the deposited data

How the results depend on the processing

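Other tests, scalings, filters, fits and the omission of single libraries gave 0 of the 10 genes called between genotypes and 8 between fractions, with 2 exceptions. With at least 10 counts required in every library, 8 of the 10 genes were left in NeuN- and over all 24 libraries, since Fosb and Egr4 were not tested. Of these 8, 6 were called between fractions and 0 between genotypes. The other was the test of any genotype difference in NeuN+, which called 1 gene, Egr3, without the filter on low counts (adjusted p = 0.0399). With the size limit dropped, Arc also passed between fractions (adjusted p = 0.0233, quasi-likelihood test). With replicate 1 of WT and of Mutyh-/- left out, an alternative chosen after the data were seen, the number was 1 in Ogg1-/- against WT and 1 for any genotype difference, both in NeuN+ and both Egr1. Those libraries were picked by the low NeuN+ values of the 10 genes, so both calls are a description only. The cause was not tested. Leaving out 1 replicate at a time gave 0 calls between genotypes and 8 between fractions throughout, while 98 of 780 log2 fold changes changed sign. Of 846 values under the other settings 10 did, and of 100 with both replicates left out, 11.

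Replicate numbers are shared between groups, and the labels do not say what a number names. Libraries of the same genotype and number deviated together across fractions at a mean r of 0.14 (0.02 to 0.34) over genes, with 8 of 12 above 0.1 and 11 of 12 libraries closest to their own number, which is a hint from the data. The mean deviation of the 10 genes had the same sign in both fractions for 10 of these 12. A replicate block left 0 of the 10 genes called in every comparison of genotypes and 8 between fractions. Depth limits Fosb and Egr4 in NeuN-, where libraries held as few as 6 and 7 counts.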
